A study of Homo sapiens with 12 samples.

Results

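Imprinted genes are expressed from 1 parental copy, and 33 of them in 16 loci were examined here for peaks of REXO4-D386A and RNaseH1-D210N. The genes were taken by name, as a list of well-known imprinted genes, and all 33 were found among the 37895 protein-coding and lncRNA genes of the RefSeq gene table of the same build as the peaks. Of the 33, 27 are protein-coding and 6 are noncoding (H19, KCNQ1OT1, MEG3, MEG8, HYMAI and GNAS-AS1). For each gene, peaks were taken that lay inside it or within 1 kb of a gene boundary. Reads were not split by parental copy, so a peak says nothing about which copy it came from.

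The study used U2OS, a human osteosarcoma cell line, with tet-on stable transgenes for a nuclease-dead protein. Of the 12 libraries, 6 came from a line with REXO4-D386A, a mutant of an RNA exonuclease family protein, and 6 from a line with RNaseH1-D210N, whose wild type cuts the RNA of RNA:DNA hybrids. Each line had 2 Flag ChIP libraries and 1 input library from cells given doxycycline (1 µg/ml, about 60 h), and as many from cells without it. The study was on the processing of R-loops, in which an RNA pairs with one DNA strand and displaces the other. The values were 1 peak list per protein, 1460 peaks for REXO4 with a median fold enrichment of 2.30 and 54623 for RNaseH1 with a median of 3.07. Neither the labels nor the files say which libraries, with or without doxycycline, entered each list, so no value below has a replicate error. The intervals are 95% exact Poisson intervals of the fragments at a summit and cover the counting error of these fragments only. The expected pileup is held fixed, so its own error is left out. Nothing is known here of the expression of these genes in U2OS.

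Imprinting is set in the germ line, where CpG dinucleotides of a control region are methylated in either the egg or the sperm. After fertilisation the methylated copy of that region stays methylated, and the promoter of a gene or of a long noncoding RNA that lies there is used on the other copy. Several of these noncoding RNAs, KCNQ1OT1 among them, run antisense to genes that they silence, and RNA:DNA hybrids have been described in the SNRPN domain and its downstream snoRNA clusters.

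RNaseH1 peaks lay at most of the imprinted genes, about as often as at protein-coding genes in general. A gene boundary peak, within 1 kb of either end, was found at 22 of the 33 genes, against 48.1% of all protein-coding and lncRNA genes together. For the protein-coding ones the count was 19 of 27 (70.4%), against 67.1% of all 19866 protein-coding genes. For the noncoding ones it was 3 of 6 (50.0%), against 27.2% of all 18029 lncRNA genes. With peaks inside the gene counted too, 27 of the 33 genes had one, against 58.9% of all. The count was 22 of 27 protein-coding genes (81.5%, against 78.5%) and 5 of 6 noncoding genes (83.3%, against 37.4%). These noncoding genes are few, and MEG8 and KCNQ1OT1 are long. By gene length, the shares of protein-coding imprinted genes ran beside those of all genes: 5 of 8 genes under 10 kb had an RNaseH1 peak (58.5% of all such genes), 11 of 13 genes of 10 to 100 kb (84.3%) and 6 of 6 genes of 100 kb or more (92.8%). No RNaseH1 peak was found at DLK1, NDN, MAGEL2, PEG3, GNAS-AS1 or NNAT.

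**Figure D1:**
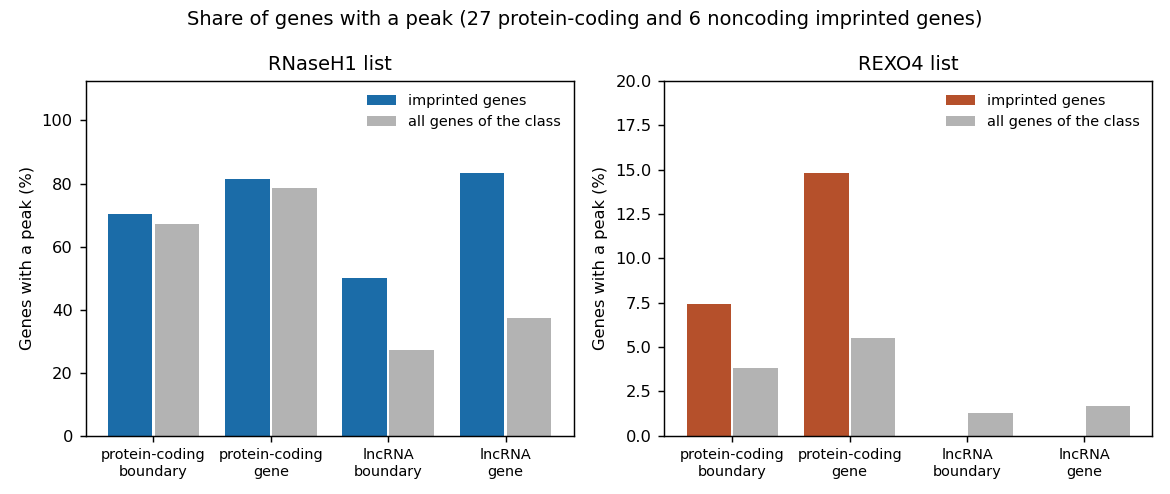
Bars give the percentage of genes with a peak, by the boundary rule (within 1 kb of either gene end) and the gene rule (inside or within 1 kb), for imprinted genes and, in grey, all genes of the class. RNaseH1 shares of protein-coding imprinted genes (70.4% and 81.5%) were close to the grey bars, and the REXO4 bars rest on 2 and 4 genes.

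In height the peaks were ordinary for the list. The 57 RNaseH1 peaks at these genes, 8 of them counted at 2 genes each, had folds of 1.97 to 4.81 with a median of 2.95, and 24 of the 57 (42.1%) lay above the list's median of 3.07. The highest boundary fold per gene had a median of 3.07 over the 22 genes with one, against 3.17 (interquartile range 2.75 to 3.71) over 18236 genes with such a peak. The 23 boundary peaks were wide and well covered, with a median width of 873 bp and a median of 64 fragments. Of the 23, 17 (73.9%) had a q of 1e-05 or less, against 45.0% of the whole list, which also holds peaks away from gene boundaries. The 34 peaks deeper inside the genes had medians of 365.5 bp and 20 fragments at a like median fold (2.99 at boundaries and 2.94 inside), and 13 of them (38.2%) had such a q. In all, 15 of the 57 peaks (26.3%) were 1 kb or wider, against 9.90% of the whole list. Width and q of the boundary peaks of all genes were not examined, so neither share can be called particular to imprinted genes.

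**Figure D2:**
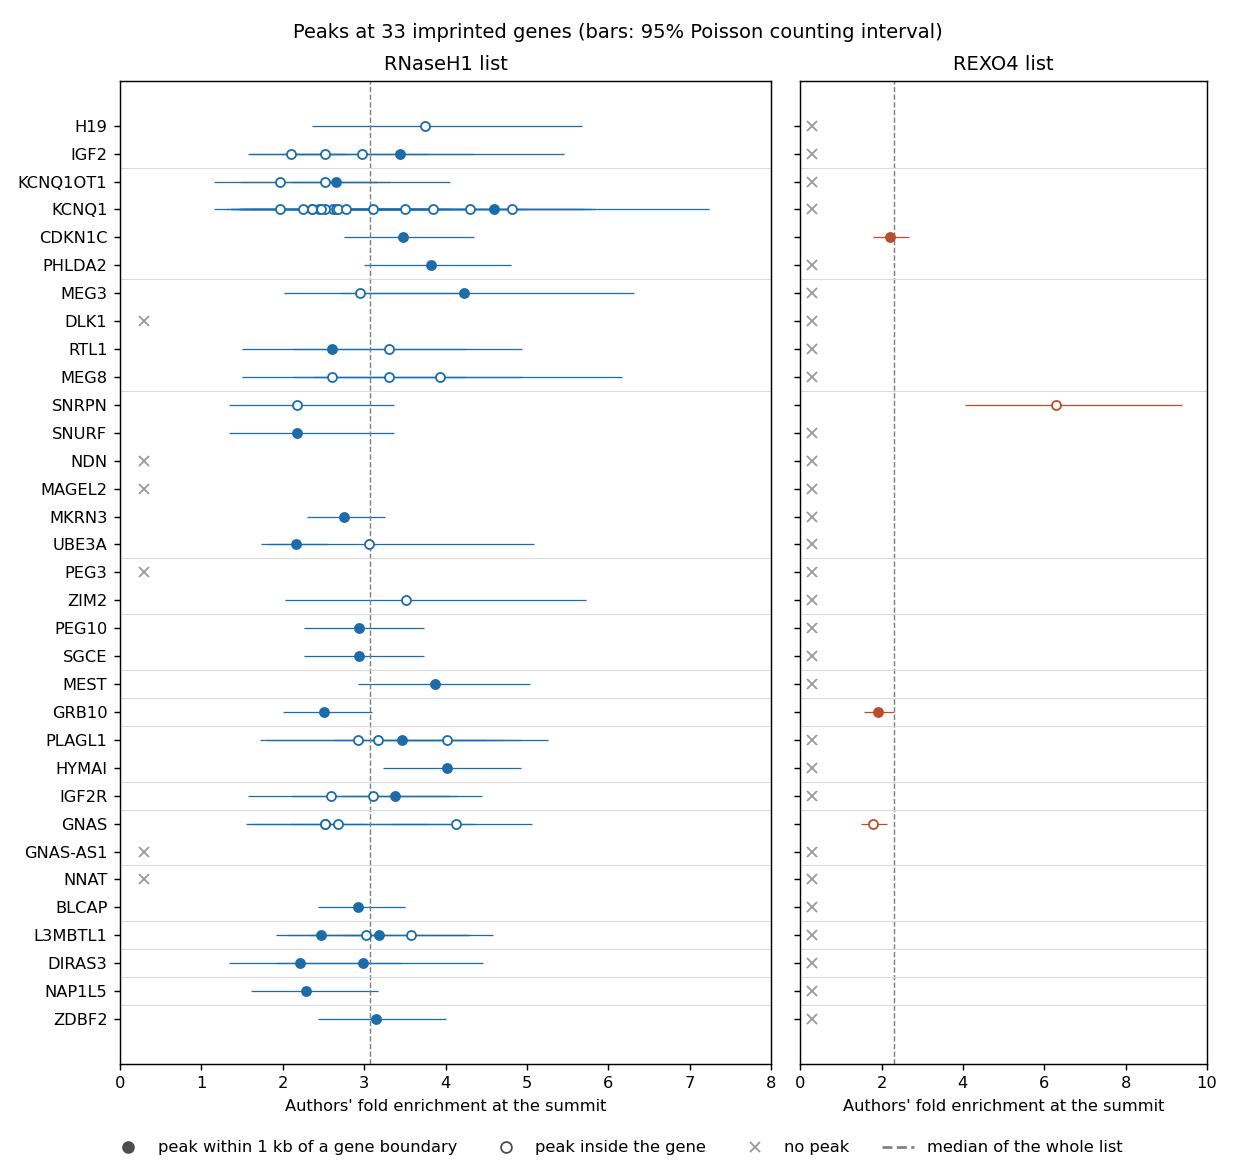
Each point is 1 peak at its authors' fold enrichment, RNaseH1 on the left and REXO4 on the right, with a 95% Poisson counting interval. Filled points lie within 1 kb of a gene boundary, open points inside the gene, crosses mark genes without a peak, and thin lines separate the loci. The intervals of most RNaseH1 peaks cross the dashed list median, and the REXO4 peak of SNRPN at 6.29 stands above the other 3 REXO4 peaks.

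Boundary peaks were next sorted into those at gene starts and those at gene ends. RefSeq start windows, 250 bases before to 50 after a start, were at hand for 20 of the 33 genes. Of these 20 genes, 14 (70.0%) had an RNaseH1 peak within 1 kb of the annotated start, against 65.6% of protein-coding and 28.4% of lncRNA genes with a listed start. At the annotated end, 1 of 20 had one (5.00%), against 11.5% and 8.61%. That gene was MEG3. For REXO4, GRB10 alone had a start peak, 1 of 20 genes (3.40% of protein-coding and 1.45% of lncRNA genes), and none had an end peak (0.271% and 0.148%). The sequences of 8 start windows follow, from RefSeq (GRCh38.p14), 5′ to 3′ on the strand of the gene, with CpG dinucleotides in capitals because methylation of CpG is what marks these starts. They are shown as contrasts among listed starts, and starts that are not listed were not examined. H19 and MEG3 are noncoding RNAs without a peak at a listed start, and SNURF and HYMAI have a peak over a maternally methylated start. GRB10 and MEST each have a peak over an upstream start and none over the methylated start downstream of it.
H19 (chr11:2001217-2001516, minus strand): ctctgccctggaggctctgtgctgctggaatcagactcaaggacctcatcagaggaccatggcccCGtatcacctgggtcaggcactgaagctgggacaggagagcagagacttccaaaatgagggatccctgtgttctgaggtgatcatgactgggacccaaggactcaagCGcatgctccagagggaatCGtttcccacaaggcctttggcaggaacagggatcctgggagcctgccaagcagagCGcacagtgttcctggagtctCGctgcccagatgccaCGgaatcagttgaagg
MEG3 first start (chr14:100825858-100826157, plus strand): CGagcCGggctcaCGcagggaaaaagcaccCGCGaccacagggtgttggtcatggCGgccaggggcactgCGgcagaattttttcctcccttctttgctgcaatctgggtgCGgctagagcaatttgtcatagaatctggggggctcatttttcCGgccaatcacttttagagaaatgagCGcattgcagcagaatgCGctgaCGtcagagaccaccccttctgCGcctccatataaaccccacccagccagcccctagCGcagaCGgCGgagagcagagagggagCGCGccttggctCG
SNURF (chr15:24954737-24955036, plus strand): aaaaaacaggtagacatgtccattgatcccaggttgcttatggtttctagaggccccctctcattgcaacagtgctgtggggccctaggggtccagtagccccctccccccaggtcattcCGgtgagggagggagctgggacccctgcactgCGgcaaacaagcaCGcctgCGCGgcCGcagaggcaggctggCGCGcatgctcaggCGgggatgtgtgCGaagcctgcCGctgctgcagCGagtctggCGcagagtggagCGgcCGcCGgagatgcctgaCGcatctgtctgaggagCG
HYMAI (chr6:144008210-144008509, minus strand): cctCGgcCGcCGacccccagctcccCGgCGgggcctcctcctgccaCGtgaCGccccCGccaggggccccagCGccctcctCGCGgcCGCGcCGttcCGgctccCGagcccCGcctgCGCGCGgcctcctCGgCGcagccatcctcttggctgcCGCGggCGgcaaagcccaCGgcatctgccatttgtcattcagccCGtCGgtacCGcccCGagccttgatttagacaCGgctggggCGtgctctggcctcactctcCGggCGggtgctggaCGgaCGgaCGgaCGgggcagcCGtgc
GRB10 first start (chr7:50793404-50793703, minus strand): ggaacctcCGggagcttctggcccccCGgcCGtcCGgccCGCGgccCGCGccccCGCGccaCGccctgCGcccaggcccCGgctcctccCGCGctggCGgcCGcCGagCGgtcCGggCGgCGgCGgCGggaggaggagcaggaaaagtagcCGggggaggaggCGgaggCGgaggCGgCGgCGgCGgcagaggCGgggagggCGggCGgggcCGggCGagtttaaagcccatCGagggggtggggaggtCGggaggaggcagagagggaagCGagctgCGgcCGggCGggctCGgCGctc
GRB10 start 3 (chr7:50782847-50783146, minus strand): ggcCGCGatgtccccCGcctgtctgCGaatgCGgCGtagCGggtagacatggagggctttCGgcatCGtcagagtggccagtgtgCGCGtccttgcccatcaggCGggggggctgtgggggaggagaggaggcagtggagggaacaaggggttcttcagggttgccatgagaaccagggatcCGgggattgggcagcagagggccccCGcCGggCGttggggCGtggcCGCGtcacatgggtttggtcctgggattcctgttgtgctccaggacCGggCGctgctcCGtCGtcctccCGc
MEST start 2 (chr7:130486097-130486396, plus strand): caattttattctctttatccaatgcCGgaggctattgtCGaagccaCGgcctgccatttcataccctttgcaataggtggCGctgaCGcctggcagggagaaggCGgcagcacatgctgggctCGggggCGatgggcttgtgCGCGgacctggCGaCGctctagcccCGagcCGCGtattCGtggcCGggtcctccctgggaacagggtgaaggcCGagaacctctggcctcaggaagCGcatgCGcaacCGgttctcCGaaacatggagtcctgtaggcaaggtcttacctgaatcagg
MEST last start (chr7:130491835-130492134, plus strand): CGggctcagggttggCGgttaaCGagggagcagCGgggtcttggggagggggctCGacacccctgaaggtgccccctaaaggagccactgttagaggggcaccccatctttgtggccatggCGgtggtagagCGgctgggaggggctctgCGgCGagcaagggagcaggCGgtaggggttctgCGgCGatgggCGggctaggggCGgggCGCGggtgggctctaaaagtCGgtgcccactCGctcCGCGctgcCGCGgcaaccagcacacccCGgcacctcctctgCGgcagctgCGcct

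These windows hold 6, 19, 18, 39, 44, 24, 22 and 25 CpG, in the order shown. The share of starts under a peak rose with CpG content: over all 35097 listed windows, 1.07% of those with 0 to 4 CpG lay under an RNaseH1 peak, 10.2% with 5 to 9, 50.7% with 10 to 19, and 87.7% with 30 or more. The 46 distinct windows of imprinted genes covered the same range, from 2 to 50 CpG with a median of 18, and 22 of them (47.8%) lay under a peak, against 44.5% of all windows. With 0 to 4 CpG it was 0 of 6, with 5 to 9 it was 1 of 6, with 10 to 19 it was 6 of 13, and with 30 or more it was 12 of 14. With 20 to 29 CpG it was 3 of 7, against 82.0% of all such windows, and the 4 without a peak were the third GRB10 start, the last pair of MEST starts and the first GNAS start. The windows of 1 gene can overlap and are not independent, so these counts are given without a test. REXO4 peaks lay over 2 windows, both of GRB10 and both with 30 or more CpG, against 6.24% of such windows and 1.62% of all.

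**Figure D3:**
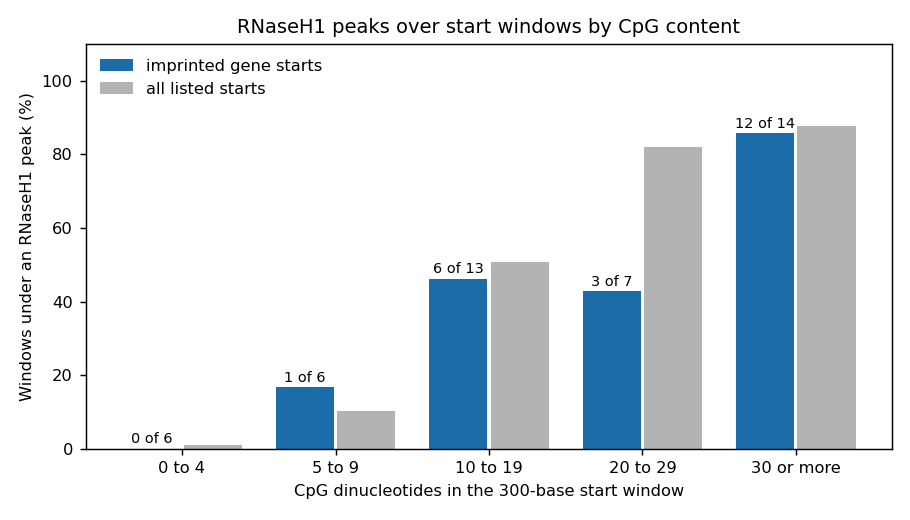
Bars give the percentage of 300-base start windows that lie under an RNaseH1 peak, by the number of CpG in the window, for the 46 windows of imprinted genes (counts above the bars) and, in grey, all 35097 listed windows. The bars run close together except with 20 to 29 CpG, where 3 of 7 windows of imprinted genes were under a peak.

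Starts known to lie in a region methylated on 1 parental copy were compared with the other starts of these genes. The methylation status is textbook knowledge, was not measured here and was assigned with the peaks known. An RNaseH1 peak covered 8 of 23 such windows (none of them with a REXO4 peak) and 14 of 23 other windows, against 44.5% of all listed windows. Among windows with 20 or more CpG, 3 of 9 methylated-region windows and 12 of 12 other windows were under a peak, against 85.1% of all 14445 such windows. Here too the windows of 1 gene are not independent. UBE3A gave 3 of the 12 others, all under 1 peak, and GNAS and MEST each gave more than 1 of the 9. With 10 to 19 CpG the counts were 4 of 11 methylated-region windows and 2 of 2 others, and with under 10 CpG the order was the other way, 1 of 3 methylated-region windows and 0 of 9 others. The methylated-region windows with 20 or more CpG had a lower median CpG number, 25, than the other windows, 38.5, and the part of that difference in the counts was not tested. By kind, 7 of 14 windows with maternal methylation from the germ line were covered: those of PLAGL1 with HYMAI, SNURF with SNRPN, the second L3MBTL1 start, DIRAS3, NAP1L5 and the last pair of GNAS starts. The GNAS pair lay under the upstream part of a peak of 3190 bp with its summit 2270 bp downstream of the last listed start. Its window with 43 CpG is among the 3 of 9 above. None of the 6 windows with paternal methylation was covered. These were the H19 window, 3 overlapping MEG3 windows and those of the first pair of GNAS starts. Only the windows were compared, so the peak that ended 1347 bp upstream of MEG3 is not counted. Of 3 starts methylated on the maternal copy after fertilisation, that of MKRN3 was covered and those of MAGEL2 and NDN were not. Some of the noncoding RNAs have a promoter known to be methylated on 1 parental copy. Of these, KCNQ1OT1 had an RNaseH1 peak at its right boundary, where its start lies, and HYMAI had one over its listed start. H19 and MEG3 had none within 1 kb of a listed start, and starts of theirs that are not listed were not examined. The summit of the peak inside H19 was 3035 bp downstream of its only listed start. GNAS-AS1 had no RNaseH1 peak, and none of these genes had a REXO4 peak.

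The hexamer TGCCGC is the core of the site that the zinc-finger protein ZFP57 binds when methylated, as described in mouse. It was searched on both strands, and matches may share bases. It occurred in 21 of the 46 windows (45.7%), against 16.7% of all listed windows and 27.5% of all windows under an RNaseH1 peak. Windows under a peak held it in 12 of 22 cases and the others in 9 of 24. Overlapping windows of 1 gene, as at MEG3 and MEST, can count the same match again. The hexamer holds a CpG, and the windows of imprinted genes had a median of 18 CpG against 14 over all windows. The part of either in these shares was not tested. Of the sequences above, the last MEST start had 3 matches, SNURF and HYMAI 2 each, and H19 and the third GRB10 start none. A match is a description of the sequence and not evidence of binding.

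In the H19 and IGF2 locus, most peaks lay inside the genes. H19, a maternally expressed noncoding RNA that hosts a microRNA, had a single RNaseH1 peak inside it at chr11:1998021-1998316, with a fold of 3.74 (2.35 to 5.68, 20 fragments against an expected 4.61) and its summit 3035 bp downstream of the listed start. No peak lay over the CpG-poor window of that start, the only one listed for H19, and other H19 starts were not examined. The next peak to the right, on the side of the listed start, began 9510 bp beyond the gene. IGF2, the paternally expressed growth factor, had 4 RNaseH1 peaks. The one at a boundary, chr11:2128225-2128588, had a fold of 3.44 (2.05 to 5.46) and lay 529 bp outside the gene, where the read-through gene INS-IGF2 also has a boundary within 1 kb. The inner peaks had folds of 2.11 to 2.98, and the widest of them spanned 1297 bp. Neither gene had a REXO4 peak.

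The KCNQ1 domain held the most peaks. KCNQ1, a potassium channel subunit gene of 404098 bp, had 17 RNaseH1 peaks, or 4.19 per 100 kb, against a median of 1.52 (interquartile range 0.740 to 2.68) over 3355 protein-coding genes of 100 kb or more. Weak peaks are counted on both sides, and those of largest q in KCNQ1 had q of 0.190 and 0.0732 on 15 and 14 fragments. Its left boundary peak at chr11:2444827-2445770 reached 4.60 (3.68 to 5.69, 83 fragments), and TRPM5 also has a boundary within 1 kb of it. The highest RNaseH1 fold among the 33 genes, 4.81 (3.06 to 7.24), was inside KCNQ1 at chr11:2836943-2837551, on 21 fragments. KCNQ1OT1, the paternally expressed antisense RNA whose promoter is the methylated control region of the domain, had a peak of 1145 bp over its right boundary, where its start lies. That peak, chr11:2699626-2700770, had a fold of 2.66 (2.10 to 3.32) on 76 fragments against an expected 28.0, a low fold on a well-covered region. A further pair inside the transcript reached 2.52 and 1.97 on 15 fragments each, with q of 0.0202 and 0.190, and all 3 peaks also lie within KCNQ1. CDKN1C, a cyclin-dependent kinase inhibitor, had an RNaseH1 peak of 2122 bp over most of the gene with a fold of 3.48 (2.75 to 4.35). PHLDA2, a growth-limiting gene of the placenta, had one of 2292 bp with a fold of 3.82 (2.99 to 4.80). The peaks of both small, maternally expressed genes were wider than 1 kb.

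In the DLK1 and MEG3 locus no listed start window lay under a peak. MEG3, a maternally expressed noncoding RNA, had no peak within 1 kb of its listed starts. The nearest, chr14:100824236-100824761, ended 1347 bp upstream of the gene with a fold of 3.01 (1.87 to 4.61), just outside the 1 kb limit. MEG3 had a peak inside it with a fold of 2.95 (2.02 to 4.16) and another that began 605 bp beyond its right boundary with 4.23 (2.72 to 6.31, 22 fragments). RTL1, a gene derived from a retrotransposon, had a peak that began 886 bp outside its start, the farthest out of any counted, at 2.60 (1.50 to 4.25), and one within the gene at 3.31 (2.13 to 4.93). Both also lie in MEG8, a noncoding RNA that overlaps RTL1 and had another inner peak at 3.94 (2.39 to 6.17). DLK1, which encodes a Notch-like ligand, had none, with the nearest peak 12342 bp to its left.

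The genes of the Prader-Willi and Angelman region differed from each other. At SNURF, whose start is the imprinting centre of the region, the RNaseH1 peak was one of the lowest: chr15:24954897-24955146 had a fold of 2.17 (1.34 to 3.37) on 18 fragments against an expected 7.74, at percentile 5.60 of the list by fold. Its −log10 q was 1.34. SNRPN, a spliceosomal protein gene that shares this start, had no other RNaseH1 peak in 155087 bp. MKRN3, which encodes a RING-finger protein, had a strong start peak by q, with a −log10 q of 20.2 at a fold of 2.75 (2.30 to 3.26) on 131 fragments. UBE3A, the ubiquitin ligase gene of Angelman syndrome, had 2.16 (1.82 to 2.55) at its start on 140 fragments against an expected 64.3, and an inner peak at 3.06 (1.73 to 5.08). For NDN and MAGEL2, both of the MAGE family, the nearest RNaseH1 peak was 119042 and 77191 bp away. The NDN window holds 35 CpG and the MAGEL2 window 9.

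At genes that share a start, a peak cannot be given to either of the pair. PEG10, a retrotransposon-derived gene, and SGCE, a sarcoglycan gene, run apart from a common methylated region. They shared the peak chr7:94655850-94656573 with a fold of 2.93 (2.26 to 3.74). PEG3, a zinc-finger gene, and ZIM2 have their right boundary in common, and no peak lay there. ZIM2 had one inside it at 3.51 (2.02 to 5.73) and PEG3 none within 14297 bp. PLAGL1, a zinc-finger gene, had peaks over both of its main starts. The peak over the upstream start, chr6:144063601-144064791, had a fold of 3.46 (2.62 to 4.50). The peak over the methylated start shared with the noncoding RNA HYMAI, chr6:144007724-144008813, had 4.01 (3.23 to 4.93), on 89 fragments against an expected 21.4. The intervals of these folds overlap. A further pair inside PLAGL1, at 3.17 and 2.93, had summits 19867 and 19467 bp downstream of the nearest listed start. NNAT, a neuronal proteolipid gene inside an intron of BLCAP, had none, while BLCAP had 2.93 (2.43 to 3.51) over its first pair of starts and none over the last one.

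Genes with several starts showed where along a locus the peaks lay. MEST, a hydrolase-family gene, had its 1 peak over the upstream pair of starts, at 3.87 (2.92 to 5.04), where the antisense gene MESTIT1 also has a boundary, and none over the 3 starts of its methylated region. GRB10, an adaptor protein of insulin signalling, likewise had 2.51 (2.01 to 3.09) over its first pair of starts and none over the third start, which is methylated. L3MBTL1, a Polycomb-family gene, had peaks of 2.46 and 3.19 at its first start and a further one of 3.57 (2.74 to 4.58) at the methylated second start, which holds 9 CpG. Another peak, at 3.02 (2.06 to 4.30), lay inside the gene with its summit 32943 bp from the nearest listed start. IGF2R, a receptor that clears IGF2, had 3.38 (2.74 to 4.14) at its start. It also had a peak at chr6:160005900-160006620 inside AIRN, the antisense RNA of the locus, near the methylated region of the gene, at 3.11 (2.10 to 4.44) on 28 fragments, and another inner peak at 2.59 (1.57 to 4.06). DIRAS3, a RAS-family growth inhibitor, had a pair of peaks at its start with 2.99 (1.92 to 4.46) and 2.21 (1.34 to 3.47). NAP1L5 lies in an intron of another gene and had 2.29 (1.61 to 3.17). ZDBF2, a zinc-finger gene, had 3.15 (2.44 to 4.01) at its start.

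**Figure D4:**
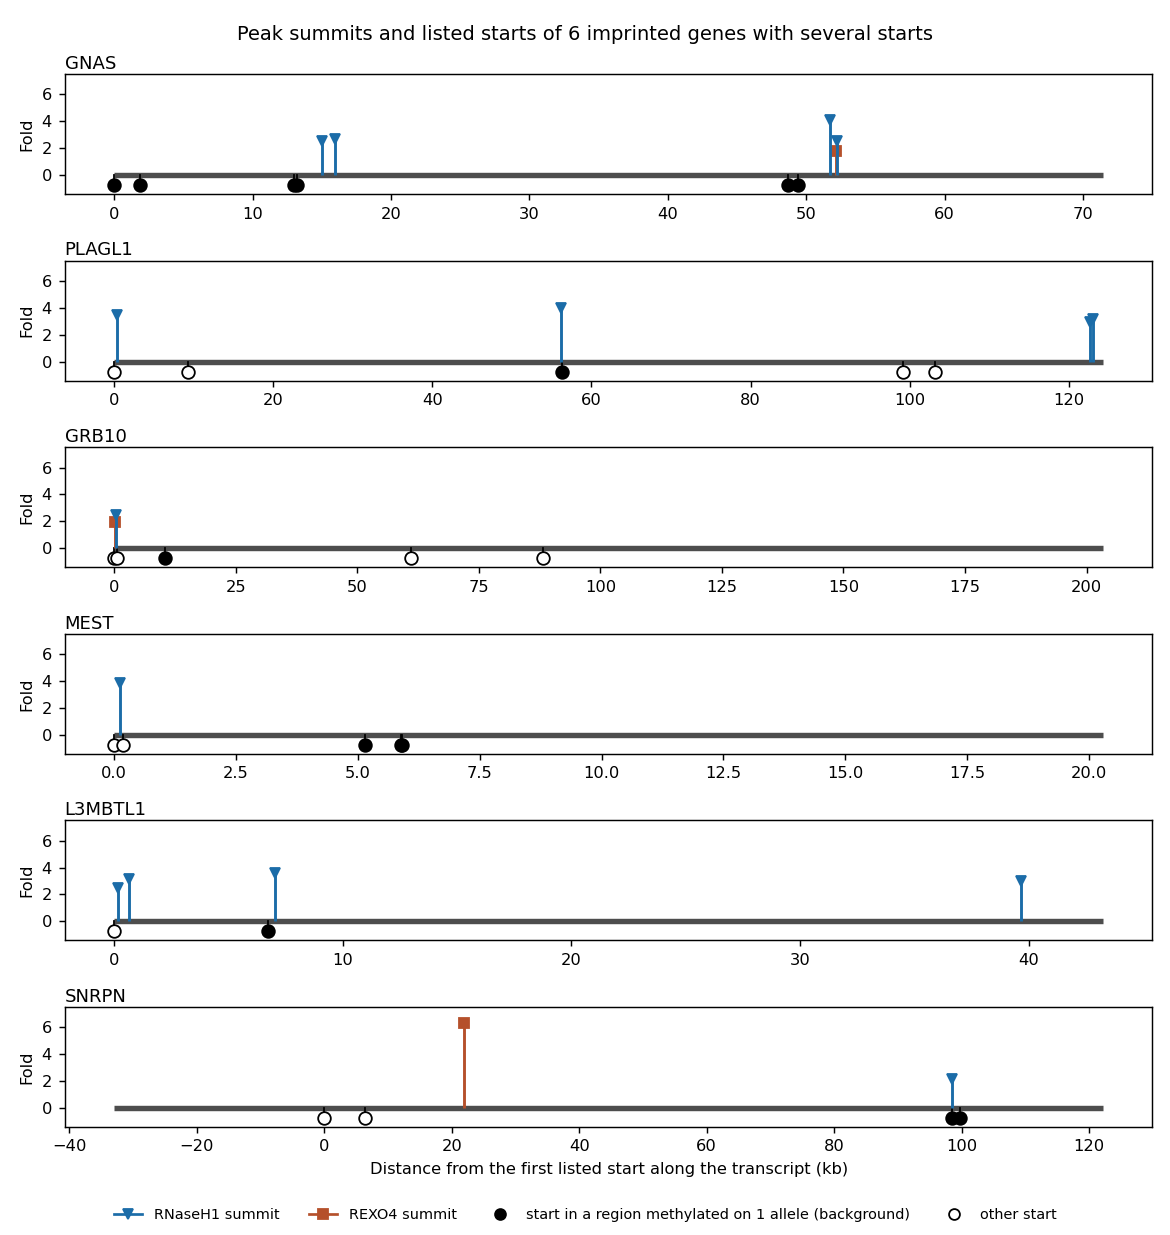
For 6 genes with several listed starts, triangles and squares mark RNaseH1 and REXO4 summits at their fold (vertical axis) by distance along the transcript from the first listed start (kb). Circles under the gene bar are listed starts, filled where the region is known to be methylated on 1 parental copy. In MEST and GRB10 the summits lie at the open circles, in PLAGL1 and L3MBTL1 some lie at open and filled ones and others at none, and the SNRPN REXO4 summit lies at no listed start.

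GNAS encodes the stimulatory G protein alpha subunit and gives several transcripts, some of them from methylated starts. Its first 4 listed starts, which serve the maternal NESP55 and the paternal XLαs transcripts, had no RNaseH1 peak over them. A pair of peaks downstream of the XLαs starts had folds of 2.52 (1.60 to 3.79) and 2.67 (1.54 to 4.36). The widest peak among the 33 genes, chr20:58888436-58891625, of 3190 bp, had a fold of 4.13 (3.33 to 5.06). Only its upstream part overlapped the windows of the last pair of starts, and it reached just the edge of the first of these windows, which ends at 58888462. Its summit lay 2270 bp downstream of the last listed start, outside both windows, and starts that are not listed were not examined. A neighbouring peak, chr20:58891793-58892834, had 2.52 (2.08 to 3.02). GNAS-AS1, the paternal antisense RNA, had no peak, and the nearest one began 3531 bp to its right.

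REXO4 peaks were found at 4 of the 33 imprinted genes: CDKN1C, GRB10, GNAS and SNRPN. By the boundary rule it was 2 of 27 protein-coding genes (7.41%), against 3.82% of all, and by the gene rule 4 of 27 (14.8%), against 5.50% of all. By length it was 1 of 8 genes under 10 kb (2.92% of all such genes), 1 of 13 of 10 to 100 kb (5.07%) and 2 of 6 of 100 kb or more (11.2%). None of the 6 noncoding genes among the 33 had one, where 1.26% of lncRNA genes did by the boundary rule and 1.66% by the gene rule. With 2 and 4 genes, no difference between these shares can be read. Of the 4 peaks, 3 overlapped an RNaseH1 peak, against 71.5% of the whole REXO4 list. From the other side, 4 of the 57 RNaseH1 peaks (7.02%) overlapped a REXO4 peak, against 2.03% of that list.

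The 3 shared peaks had folds under the list median of 2.30 and rested on many fragments. At CDKN1C, chr11:2884720-2885025 had a REXO4 fold of 2.20 (1.79 to 2.68) on 96 fragments against an expected 43.1. It lay wholly inside the RNaseH1 peak, and the summits were 154 bp apart. At GRB10, chr7:50793047-50793408 had 1.92 (1.58 to 2.31) on 109 fragments against an expected 56.3, with summits 184 bp apart, over the CpG-rich upstream starts shown above. At GNAS, chr20:58891437-58892074 had 1.80 (1.50 to 2.14) on 127 fragments against an expected 70.1. It bridged the last pair of RNaseH1 peaks there, with 189 bp in the first and 282 bp in the second. By fold these were at percentiles 46.1, 27.5 and 18.9 of the REXO4 list.

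The fourth was of another kind. The REXO4 peak inside SNRPN, chr15:24878264-24878564, had a fold of 6.29 (4.05 to 9.39), rank 25 of 1460, but rested on 22 fragments against an expected 2.65, and by q it ranked 334. The interval leaves out the error of this low expected value, so it is too narrow. The peak lay 54812 bp inside the left boundary of SNRPN, 15477 bp downstream of the nearest listed start, and 76333 bp from the nearest RNaseH1 peak, the one at SNURF. SNHG14, the long host RNA of the region, spans the same position. The 3 shared peaks had an expected pileup of 43.1 to 70.1 fragments, far above this one's, and the part of that in its higher fold was not tested.

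Other imprinted genes and locus neighbours had RNaseH1 boundary peaks in a lower share than all genes of their class, with no test of the difference. With both classes together the share was alike, 20 of 42 (47.6%) against 48.1% of all protein-coding and lncRNA genes. From a wider list of 42 genes, 18 of 33 protein-coding genes had an RNaseH1 boundary peak (54.5%, against 67.1% of all) and 2 of 9 lncRNA genes did (22.2%, against 27.2%). The highest boundary folds were at ASCL2, a trophoblast transcription factor (4.50), TRAPPC9, a trafficking complex subunit (4.46), MCTS2, a retrogene (4.39), and COPG2, a coatomer subunit next to MEST (3.64). REXO4 peaks lay at 3 of the 42: KCNQ1DN, a noncoding neighbour of CDKN1C (3.65), KLF14, a transcription factor gene near MEST (2.40), and SNHG14 through the peak that lies in SNRPN. By the gene rule 5.50% of all protein-coding and 1.66% of all lncRNA genes had one. Of 15 genes for factors that set or keep imprints, 7 (46.7%, against 67.1% of all protein-coding genes) had an RNaseH1 boundary peak and none had a REXO4 peak by the gene rule, against 5.50%. The highest boundary folds were at DNMT3A, the de novo DNA methyltransferase (4.83), ZNF445, a zinc-finger protein of imprint maintenance (3.72), ARID4A, a chromatin protein tied to the Prader-Willi imprint in mouse (3.59) and TRIM28, the corepressor that ZFP57 recruits (2.86). ZFP57 itself had none.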

How the data were processed

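Per the labels, Flag-tagged nuclease-dead transgenes in U2OS were pulled down on anti-Flag beads after formaldehyde fixation and sequenced beside inputs. MACS2 2.1.0.20150731, HISAT2 2.2.1, deepTools 3.5.1, SAMtools 1.17, Trim Galore 0.6.10 and Cufflinks were used on build hg38, per the submitters' processing notes, which as given here name no role for each. What served as control, which libraries were pooled and the calling limit are not stated in the labels. The largest q was 0.179 for REXO4 and 0.198 for RNaseH1. Depth per library is unknown from a peak list.

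Fold enrichment, a ratio, is the authors' deposited value, and so are −log10 p and −log10 q. The authors' peak score was not used. Folds were compared within a list only.

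Genes came from RefSeq (GRCh38.p14), 59792 in all. Left out were 831 that had no position, lay off the autosomes, X and Y, or were listed out of position order on their chromosome. A boundary peak had at least 1 bp in the 1 kb inside or outside a gene end. Strands and starts came from RefSeq's start windows, listed for 20 of the 33 genes. The others are IGF2, KCNQ1OT1, KCNQ1, CDKN1C, PHLDA2, DLK1, MEG8, PEG3, ZIM2, PEG10, SGCE, GNAS-AS1 and NNAT. Fragments and expected pileup were recovered from fold and p, taking fold as fragments plus 1 over expected plus 1, and came out whole within 0.05 for all 57 RNaseH1 and 4 REXO4 peaks at these genes. Gene calls and this recovery were checked on simulated data.

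No test was run on the imprinted genes: their counts stand beside the same share of all genes. All 33 are named, with every REXO4 peak. Of the wider list, the 4 genes of highest RNaseH1 boundary fold and each gene with a REXO4 peak are named, and of the imprint factors the 4 of highest boundary fold. The genes, the lists and the methylation classes were chosen with earlier results of these data known. Python 3.11.15 was used with pandas 2.3.3, SciPy 1.17.1, NumPy 2.4.6 and, for figures, matplotlib 3.10.9.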

Additional observations from a re-analysis of the deposited data

How the results depend on the processing

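Of 34 alternatives, 33 stayed within the limits of 1.5 times the count or, for the median fold, of the typical counting interval of the peaks. The exception was the number of imprinted genes with a REXO4 boundary peak, which was 1 instead of 2 with a window of 500 bp, because the CDKN1C peak lies farther from the gene end than that. With other windows, q limits of 0.05 and 1e-05, or the summit in the window, RNaseH1 boundary peaks were found at 17 to 22 genes and RNaseH1 peaks in the gene at 19 to 27. With other windows and the same q limits, start peaks were found at 10 to 15 of 20 genes. The lowest of each came with q of 1e-05 or less, and the count of 15 came with a window of 2500 bp, which takes in the peak upstream of MEG3. With other windows, a q limit of 0.05 or the summit in the window, the median highest fold ran from 2.93 to 3.07. With an overlap of at least 50% of the REXO4 peak, 2 of the 4 REXO4 peaks were shared instead of 3, without the one at GNAS, which is split between a pair of RNaseH1 peaks. No paired analysis was possible because the lists carry no value per library, and leaving out a replicate was not possible for the same reason. Peaks of few fragments have wide counting intervals, from 1.15 to 3.16 for the lowest fold, 1.97 inside KCNQ1OT1, so the order of folds among them cannot be read.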
